A study of Mus musculus with 48 samples.

Results

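The comparison asked which hepatic genes responded to a high fat diet (HFD) differently in mice with PPARα and in mice without it. It used 32 of the 48 liver arrays of the series, 8 in each of 4 groups, and took for every gene the change from control diet (CTRL) to HFD in WT mice minus the same change in PPARα KO mice. All animals were C57Bl6J males of 20 weeks, fed CTRL or an HFD holding 60% fat for 12 weeks as the labels give it (the study's methods give a shorter period), kept at thermoneutrality and killed in the fed state, with 1 mouse per array. Replicates are thus separate mice. KO mice carry a germline deletion, so the receptor is missing from every tissue and from birth, and they were bred at the study's own facility whereas the WT mice were bought, so genotype and origin cannot be told apart. The other 16 arrays, of mice in which albumin-Cre removes the receptor from hepatocytes (LKO), are used below for side by side values. They also entered the probe filter, the normalization, the array weights, the term for the microarray washing bath and the estimate of the spread.

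PPARα is a nuclear receptor that binds fatty acids and, as a dimer with RXR, switches on genes of fatty acid uptake, peroxisomal and mitochondrial β-oxidation, ω-hydroxylation and ketogenesis. In the liver it is best known for the fasting response, and it also restrains inflammatory transcription. A difference in diet response between genotypes can take several forms, since a gene may move in WT mice alone, in KO mice alone, or in opposite directions in both.

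Values are log2 signals, and the interaction is the WT response minus the KO response on that scale, so that a positive interaction means a more positive change in WT mice. The 32 arrays had 28234 to 36437 spots well above background. The brightest Ppara probe read 14.03 to 15.07 in WT and 13.53 to 14.09 in KO livers on CTRL, and 14.65 to 15.24 against 13.83 to 14.27 on HFD, so a transcript was still detected in KO livers, lower than in WT livers by 0.65 on CTRL (adjusted p = 1.06e-06), and the probe is a weak check of the labels. Among the HFD-fed WT mice, replicates 1 and 2 stood apart from the other 6. Their Cfd signals were 7.49 and 5.74 against 13.90 to 15.51, and their Moxd1 signals were 14.82 and 15.28 against 5.05 to 9.31. Their Cfd values lay within the range of the CTRL-fed WT mice and their Moxd1 values above it. Their Cyp2b10 (5.49 and 5.33) and Cyp8b1 values (9.55 and 9.95) were also within that range, as was 1 of their Cyp2b9 values (5.35 and 4.84), and their Fgf21 values (6.54 and 6.30) were below it. For other genes both mice lay outside the CTRL-fed WT range, in the direction of the fitted WT diet change. These were Msmo1 (13.89 and 14.72 against at most 13.23), Scd1 (13.78 and 15.05 against at least 15.67) and Cyp39a1 (10.53 and 10.38 against at least 10.63). Whether these mice were fed and labelled as stated was not tested, and the doubt bears on every HFD-fed WT value. Each went through a different one of the 2 washing baths, and of the 4 arrays with a weight under 0.5 (1 of CTRL-fed WT, 2 of HFD-fed WT and 1 of CTRL-fed KO mice) replicate 2 was one. Values without both are given where they matter, and since these mice were singled out by these very genes, a larger difference without them supports nothing.

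Of 33323 probes tested, 4773 (14.3%) had an interaction at an adjusted p of at most 0.05 by limma with Benjamini-Hochberg adjustment, 2469 (7.41%) with the WT response above that of KO mice and 2304 (6.91%) below it. Processed signals scaled to the 75th percentile gave a more uneven split of 3225 and 1694. With 1 probe per gene, 2638 of 16419 gene symbols (16.1%) were called, 1387 (8.45%) with the WT response above that of KO mice and 1251 (7.62%) below it. Most differences were small. The median size among the called genes was 0.47 and 287 of them reached 1, which is a 2-fold difference between the fold changes. The count rested on the weighting of arrays. The model gave less weight to arrays that departed more from their fitted group values, from 0.21 to 2.42 among the WT and KO arrays. Of those under 0.5, replicate 6 of the CTRL-fed WT mice (0.21) had the most spots well above background in its group. Replicate 6 of the HFD-fed WT mice (0.37) did too. Replicate 3 of the CTRL-fed KO mice (0.42) had the fewest, and HFD-fed WT replicate 2 (0.345) ranked 3 from the lowest. Whether the weights reflect array quality or differences between mice was not tested. Without these weights 1740 probes (5.22%) were called, 909 (2.73%) above and 831 (2.49%) below, and 923 gene symbols (5.62%), 496 (3.02%) above and 427 (2.6%) below.

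Most called genes had a diet response that passed the test in 1 genotype only. A response that did not pass may still have added to the interaction, so these classes sort calls. Below, a gene said to move in 1 genotype alone or only had its change called in that genotype only. Of the 1387 with the WT response above that of KO mice, 635 rose in WT mice with no called change in KO mice. Another 468 fell in KO mice with no called change in WT mice, and 112 rose in WT and fell in KO mice. Of the 1251 in the other direction, 581 rose in KO mice and 440 fell in WT mice with no called change in the other genotype. A further 108 fell in WT and rose in KO mice. Genes with called changes the same way in both genotypes were few, 22 above and 14 below. An example that also held without array weights was Tmem45b, which rose by 0.79 in WT and 2.17 in KO mice. For the remaining 150 and 108 genes neither diet response passed the test by itself, as for the homeobox gene Irx3 (-0.59 and 0.51, interaction -1.10). Hnf4aos, a transcript antisense to the hepatocyte regulator Hnf4a, rose by 1.17 in WT mice and fell by 1.09 in KO mice. Among genes with a lower WT response, 570 had no called genotype difference on CTRL and were higher in KO livers on HFD, and 399 were higher in WT livers on CTRL with no called difference on HFD. In the other direction, 519 were called higher in WT livers on HFD with no called difference on CTRL. Another 447 were called higher in KO livers on CTRL with no called difference on HFD.

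**Figure D1:**
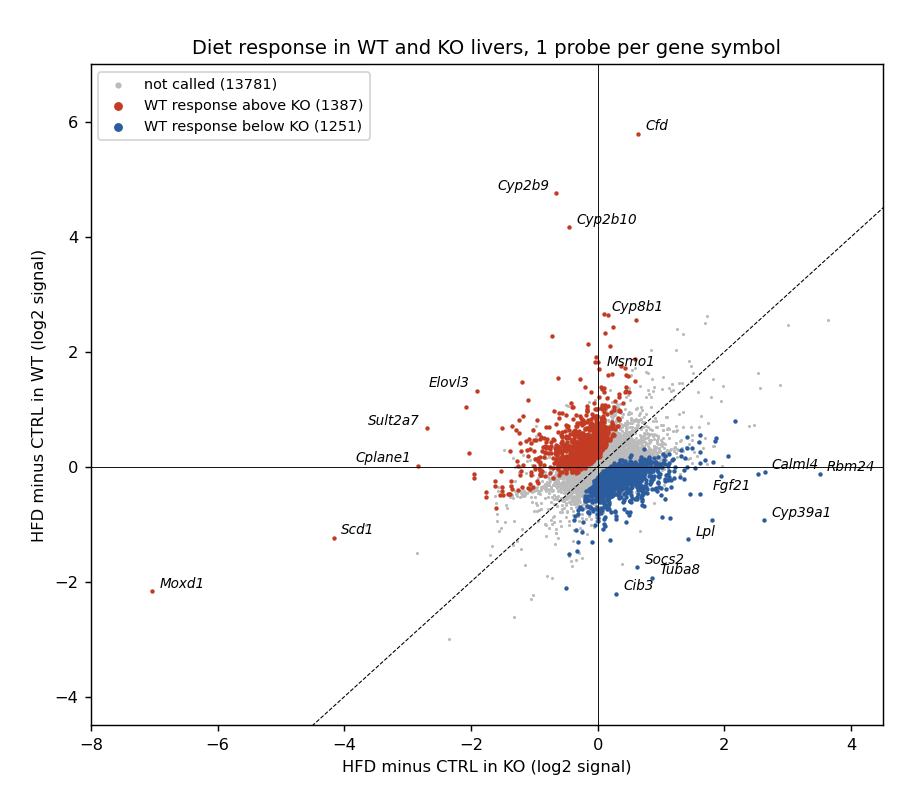
Each point is 1 gene symbol, placed by its HFD minus CTRL difference in KO livers (horizontal, log2 signal) and in WT livers (vertical, log2 signal), with the 1387 genes whose WT response was above that of KO mice in red, the 1251 below in blue and the genes not called in grey. The dashed line marks equal responses, and each axis line marks no change in 1 genotype.

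Cytochromes P450 that clear xenobiotics gave 2 of the 4 largest fitted positive interactions. Cyp2b10, the classical target of the nuclear receptor CAR (probe at chr7:26711522-26711581, mm9), had a lowest, median and highest signal of 5.12, 6.17 and 8.73 in CTRL-fed WT mice and 5.33, 9.98 and 14.39 in HFD-fed WT mice. In KO mice the same values were 5.53, 6.04 and 7.67 on CTRL and 5.51, 5.75 and 6.41 on HFD. Thus 6 of the 8 HFD-fed WT mice exceeded every CTRL-fed WT mouse, replicates 1 and 2 did not, and the KO groups overlapped. The interaction was 4.62 ± 0.90 (SE, adjusted p = 0.000532, limma), and 5.65 in washing bath 1 and 3.997 in washing bath 2 taken alone. Its neighbour Cyp2b9 behaved alike, with 4.84, 10.46 and 14.80 in HFD-fed WT mice, at most 5.60 in HFD-fed KO mice, and an interaction of 5.41 ± 0.94 (adjusted p = 0.000146). The probes of these near-identical paralogs may share signal. Only 1 of 8 HFD-fed KO arrays and 3 of 8 CTRL-fed ones read Cyp2b9 well above background, so the size of its interaction is uncertain. The lowest Cyp2b10 signals on HFD, 5.51 in KO and 5.33 in WT mice, also lay near background, so the size of that interaction is uncertain too.

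Of 28 xenobiotic P450 genes tested, 6 had a WT response above that of KO mice and none below, with a median interaction of 0.29 against -0.0075 over all gene symbols. The smaller members were Cyp2d9 (1.00, adjusted p = 0.00446), Cyp2d22 (0.59), Cyp2j5 (0.52) and Cyp2f2 (0.46). For Cyp2d9 and Cyp2f2 the KO falls of 0.67 and 0.60 passed, while the WT differences of 0.33 and -0.14 did not. Without array weights 3 of the 6 were called. Of 24 nuclear receptors and coactivators 3 had a higher and 1 (Nr1h2, -0.24) a lower WT response, beside 8.45% and 7.62% of all gene symbols, with a list median of -0.0065. A pair of xenosensing receptors was among the 3. Nr1i3, which encodes CAR, changed by 1.04 in WT mice and by 0.25 in KO mice (interaction 0.79, adjusted p = 0.0139), and Nr1i2, which encodes PXR, had an interaction of 0.48 (adjusted p = 0.041). Without array weights limma called none of the 24 (2 higher and 1 lower at an unadjusted p under 0.05), these receptors included (adjusted p = 0.158 and 0.217).

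Cfd, which encodes the secreted complement protease factor D or adipsin (probe at chr10:79355302-79355361, mm9), reached 5.74, 14.18 and 15.51 in HFD-fed WT mice from 5.70, 7.86 and 9.92 on CTRL. In KO mice it stayed low, at 5.18, 5.38 and 6.16 on CTRL and 5.29, 5.84 and 7.46 on HFD. The 6 higher HFD-fed WT mice exceeded all other mice, no KO mouse was above 7.46, and 1 of 8 CTRL-fed KO arrays read it well above background, so the size of its interaction is uncertain. The interaction was 5.15 ± 0.96 (adjusted p = 0.000335) and 6.03 without replicates 1 and 2, and a second Cfd probe gave 5.18. As Cfd is also an adipocyte gene, the other white adipocyte markers are set beside it. Of 6 markers tested 1 was called, Cfd itself, beside 8.45% of all gene symbols with a higher WT response, and of the other 5 interactions 4 were positive, from leptin (Lep, 0.07) to carbonic anhydrase Car3 (0.88), with Fabp4 at -0.22. The list median was 0.19, with a median change of 0.37 in WT and -0.05 in KO mice, and 2 were called without the 4 arrays of lowest weight or without replicates 1 and 2. Their summed signal, Cfd included, was 40506 to 156927 in CTRL-fed and 21706 to 259907 in HFD-fed WT mice, and 86763 to 138766 and 71211 to 142571 in KO mice. The defining markers Adipoq and Plin1 did not pass the background filter, with Adipoq well above background on 0 of 8 HFD-fed WT arrays. The part of adipocytes in the Cfd result was not tested.

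**Figure D2:**
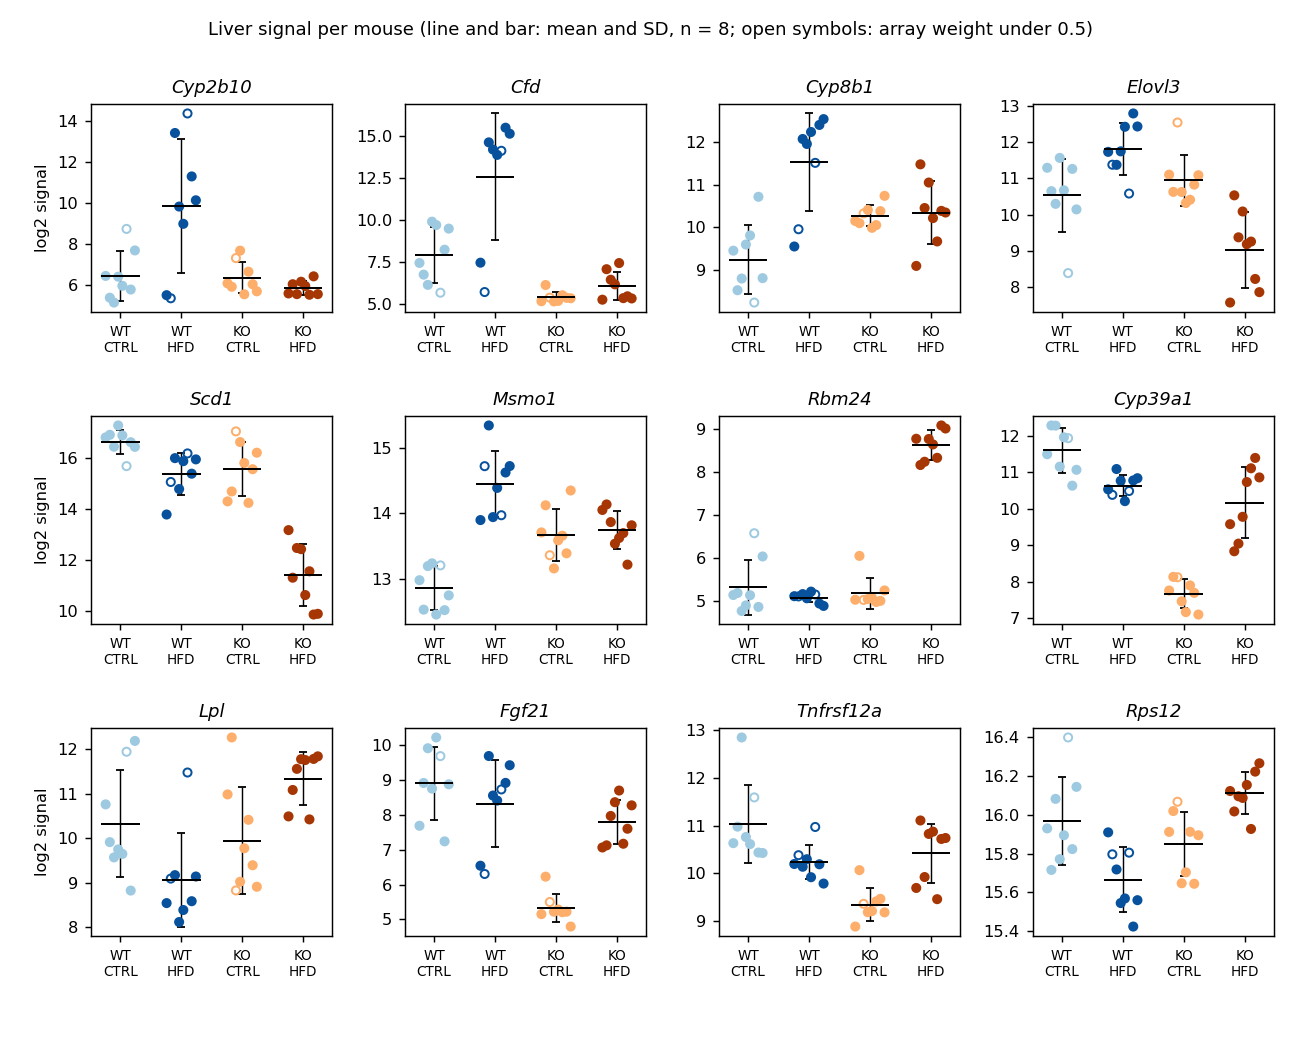
Each panel shows the log2 signal of 1 gene in the 32 mice by group, with the mean as a line and the SD as a bar (n = 8), and open symbols for the 4 arrays weighted under 0.5. Cyp2b10, Cfd and Cyp8b1 are high in 6 of 8 HFD-fed WT mice, while Rbm24 is high in all 8 HFD-fed KO mice at 8.16 to 9.08 and no higher than 6.58 elsewhere.

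Bile acid synthesis held a large interaction of each sign. Cyp8b1, the sterol 12α-hydroxylase that directs synthesis to cholic acid, had signals of 8.22, 9.12 and 10.72 in CTRL-fed and 9.55, 12.02 and 12.55 in HFD-fed WT mice. The KO values were 9.99, 10.24 and 10.74 on CTRL and 9.09, 10.37 and 11.48 on HFD. It rose in WT mice by 2.65 (adjusted p = 1.39e-06) with 0.10 in KO mice, an interaction of 2.55 ± 0.48 (adjusted p = 0.000347). Cyp39a1, an oxysterol 7α-hydroxylase (probe at chr17:43887735-43887794, mm9), went the other way, with an interaction of -3.56 ± 0.43 (adjusted p = 1.38e-06). Its signal was 7.10, 7.73 and 8.13 in CTRL-fed KO mice and 8.84, 10.25 and 11.39 in HFD-fed KO mice, with no overlap. In WT mice it was 10.63, 11.71 and 12.28 on CTRL and 10.21, 10.65 and 11.09 on HFD, a fall of 0.93. The genotypes therefore differed by 3.95 on CTRL (adjusted p = 1.05e-13) and by 0.40 on HFD (adjusted p = 0.248). Of 23 bile acid genes tested, 4 had a higher and 1 a lower WT response, beside 8.45% and 7.62% of all gene symbols, the others being Cyp27a1 (0.75, with a fall of 0.65 in KO mice), Hsd3b7 (0.47) and the conjugating enzyme Baat (0.32). Without array weights Cyp8b1 and Cyp39a1 were the members called.

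Cholesterol biosynthesis genes had positive interactions as a group. All 24 tested members of the pathway and its SREBP2 regulators had a value above 0, with a median of 0.73, and 7 (29.2%) were called, all with the WT response higher, beside 8.45% of all gene symbols. The median change on HFD was 0.47 in WT and -0.25 in KO mice. Msmo1, the sterol C4 demethylase, rose in WT mice from 12.45, 12.86 and 13.23 to 13.89, 14.50 and 15.34 without overlap. In KO mice it read 13.15, 13.62 and 14.35 on CTRL and 13.21, 13.76 and 14.13 on HFD, which overlap throughout. Its interaction was 1.67 ± 0.31 (adjusted p = 0.000344) and its 2 other probes gave 1.55 and 0.94. Tm7sf2, a sterol reductase of the same pathway, rose by 0.69 in WT mice and fell by 0.81 in KO mice (interaction 1.51, adjusted p = 0.000223). Nsdhl (1.33, adjusted p = 0.00868) and mevalonate kinase Mvk (1.19, adjusted p = 0.00108) rose in WT mice only, and Dhcr7 (0.96), Hsd17b7 (0.76) and Ebp (0.55) were the others. The effect was larger in 1 bath, with a list median of 0.21 in washing bath 1 and 1.23 in washing bath 2.

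The promoters of these genes are shown because SREBP2 acts with the factor NF-Y, whose site is the CCAAT box. CCAAT, on either strand within the 250 bases before the RefSeq start, was present in 16 of the 16 list members with a promoter sequence, 7 of them called, and in 37.5% of all 27025 genes with one. The sterol element TCACNCCAC, on either strand within the whole window, was found in 1 of the 16 against 1.44% of all genes. The stretches below run 5′ to 3′ on the gene's strand (RefSeq, GRCm38.p6), with the CCAAT box nearest to the start, or its reverse complement, in capitals.
Msmo1 (chr8:64733616-64733645, minus strand): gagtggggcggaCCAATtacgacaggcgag
Tm7sf2 (chr19:6067880-6067909, minus strand): ctcccagcgctgATTGGctactgtgctggg
Nsdhl (chrX:72918489-72918518, plus strand): aagactagcctcATTGGgcaaaatcatgct
Mvk (chr5:114444239-114444268, plus strand): tagctccagctctctgATTGGcctcaggaa
Dhcr7 (chr7:143830153-143830182, plus strand): aatccacttccgATTGGtcgtctgtgacct
Hsd17b7 (chr1:169969206-169969235, minus strand): gagccgggccgagccttgATTGGtcgaggt
Ebp (chrX:8193550-8193579, minus strand): atccctgtactgATTGGttcgtcagattcg
In all but Msmo1 the box reads as its reverse complement, and in all 7 it begins at position -55 to -12 relative to the start. A match is a description of the letters and shows no binding.

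A desaturase and an elongase of fatty acids were among the 10 largest positive interactions. Scd1, the stearoyl-CoA desaturase, was 15.67, 16.70 and 17.27 in CTRL-fed and 13.78, 15.62 and 16.17 in HFD-fed WT mice. In KO mice it dropped from 14.24, 15.68 and 17.03 to 9.87, 11.43 and 13.17 with no overlap. It fell by 1.23 in WT mice and fell by 4.17 in KO mice, an interaction of 2.94 ± 0.58 (adjusted p = 0.000579), while a dimmer second probe gave 0.94 without a call. Elovl3, which elongates very long chain fatty acids, rose in WT mice by 1.32 and fell in KO mice by 1.91 (interaction 3.23 ± 0.56, adjusted p = 0.000144). Of 19 lipogenic genes Scd1 and the citrate carrier Slc25a1 (0.33) were called with a higher WT response, a share of 10.5% near the 8.45% of all gene symbols, and the list median was 0.11. Elovl3 also counts among genes expressed more in male liver. Of 17 such genes 4 (23.5%) were called, all with the WT response higher, and the list median of 0.94 (0.30 in washing bath 1 and 1.14 in washing bath 2) came with a median change of -0.32 in WT and -0.97 in KO mice. Mup20, a major urinary protein, fell by 0.99 in KO mice with -0.05 in WT mice (interaction 0.94 ± 0.18, adjusted p = 0.000353), while a second probe of nearly the same brightness gave 0.24 with no call. Moxd1, a monooxygenase, was 11.88, 13.07 and 14.95 in CTRL-fed KO mice against 5.04, 5.62 and 10.04 on HFD, with no overlap. In WT mice it spread over nearly the whole range in both groups, 5.29 to 14.21 and 5.05 to 15.28, and the interaction of 4.87 ± 1.53 (adjusted p = 0.0269) was lost in 9 of 48 alternative settings. The lowest HFD signals, 5.04 in KO and 5.05 in WT mice, lay near background, so the size of the Moxd1 interaction is uncertain. The female-biased list had 2 of 16 (12.5%) called, Cyp2b9 and Cyp4a14, near the share of all gene symbols.

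The other genes among the 10 largest positive interactions fell in KO mice. The sulfotransferase Sult2a7 read 11.39, 12.39 and 14.33 in CTRL-fed and 9.27, 9.85 and 12.54 in HFD-fed KO mice, against 5.68, 8.40 and 9.76 on CTRL and 8.58, 9.10 and 9.97 on HFD in WT mice. Its interaction was 3.37 ± 0.59 (adjusted p = 0.000152). For Cplane1, a ciliogenesis gene, the probe used gave 2.85, and of 3 others 1 gave 3.93 and 2 gave -0.20 and -0.14 with no call, so the probes of this gene disagree. Pax2, a developmental transcription factor, gave 3.12 by 1 probe and -0.16 by a dimmer one.

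Genes that PPARα is known to drive in fatty acid oxidation had higher WT responses in small numbers, and these calls rested on the array weights. Of 19 mitochondrial oxidation genes 4 were called, Acsl1 (0.57), Eci1 (0.49), Decr1 (0.45) and Echs1 (0.28), and of 15 peroxisomal genes 3 were, the transporter Abcd3 (0.48), catalase Cat (0.37) and the thioesterase Acot8 (0.34). Both shares, with list medians of 0.09 and 0.34, compare with 8.45% of all gene symbols called in this direction. Dimmer Acsl1 probes gave 0.49 and -0.02 with no call. The ω-hydroxylase Cyp4a14 had the largest fitted difference of these lists, with 5.27, 5.94 and 7.15 in CTRL-fed and 5.49, 8.39 and 9.23 in HFD-fed WT mice. Its KO values were 5.01, 5.37 and 7.43 on CTRL, where 1 of 8 arrays read it well above background, and 5.54, 5.99 and 6.61 on HFD, and the interaction was 1.96 ± 0.56 (adjusted p = 0.0152), of uncertain size for that reason. The cytosolic thioesterase Acot1 (1.94, adjusted p = 0.045) and the peroxisomal Acot5 (1.38) rose in WT mice alone, whereas Acot2 (1.19, adjusted p = 0.101) and Acot3 (0.98, adjusted p = 0.435) did not pass. A dimmer Acot5 probe gave -0.01 with no call. Without array weights limma called none of the members of these 4 lists (at an unadjusted p under 0.05, 1 mitochondrial, 3 peroxisomal, 2 Cyp4 and 1 thioesterase gene had a higher WT response, and 3 mitochondrial and 2 peroxisomal genes a lower one). The mitochondrial list median was then -0.0024 and the peroxisomal one 0.27. Without HFD-fed WT replicates 1 and 2, 6 mitochondrial, 8 peroxisomal, 2 Cyp4 and 6 thioesterase genes were called. Vnn1, a pantetheinase often used as a PPARα target, rose in both genotypes, by 2.39 and 1.25, and its interaction of 1.14 did not pass (adjusted p = 0.126).

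Lipid storage and uptake genes split. The lipid droplet protein Cidea rose in WT mice by 2.64 with 0.17 in KO mice (interaction 2.47 ± 0.62, adjusted p = 0.00599). Fitm1, needed for droplet formation, was 7.56, 9.63 and 10.43 in CTRL-fed and 9.24, 11.31 and 11.56 in HFD-fed WT mice. It read 5.03, 7.37 and 8.52 on CTRL and 6.12, 7.33 and 7.71 on HFD in KO mice, with an interaction of 1.82 ± 0.48 (adjusted p = 0.00839). These and Fitm2 were the 3 called of 17 droplet genes (17.6%, beside 8.45% of all gene symbols), but 6 of the 17 had a positive interaction and the list median was -0.11. Without array weights limma called none, 3 being higher and 5 lower at an unadjusted p under 0.05, with a median of -0.32. The acyltransferase Mogat1 rose only in WT mice (2.22, adjusted p = 0.00447) and was called without weights (adjusted p = 0.0403), as was the fatty acid transporter Slc27a1 (0.64, adjusted p = 0.0122 without weights). Lpl, which hydrolyses circulating triglycerides, had the opposite sign. It was 8.83, 9.83 and 12.19 on CTRL and 8.12, 8.84 and 11.48 on HFD in WT mice, and 8.83, 9.59 and 12.27 on CTRL and 10.43, 11.66 and 11.84 on HFD in KO mice. The WT groups overlapped and so did the KO groups, yet it fell by 1.26 in the former and rose by 1.43 in the latter (interaction -2.69 ± 0.51, adjusted p = 0.000353). The lipoprotein lipase activator Apoc2 also rose in KO mice only (-0.75, adjusted p = 0.00489). Pparg, another PPAR isotype tied to hepatic fat storage, rose by 1.17 in WT and 1.19 in KO mice, with an interaction of -0.01 ± 0.34.

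Among the 10 largest negative interactions, 4 genes rose on HFD in KO mice with no called change in WT mice. Rbm24, an RNA binding protein known from muscle splicing (probe at chr13:46526275-46526334, mm9), was 4.99, 5.05 and 6.05 in CTRL-fed and 8.16, 8.70 and 9.08 in HFD-fed KO mice. WT livers read 4.78, 5.15 and 6.58 on CTRL and 4.89, 5.12 and 5.23 on HFD, with 0 of 8 HFD-fed WT arrays well above background. On HFD its level was at least 8.35-fold higher in KO than in WT livers, and the fitted interaction was -3.64 ± 0.32 (adjusted p = 4.06e-10). The size of that interaction is uncertain, because signals outside HFD-fed KO mice lay mostly near background. It ranged from -6.60 to -2.85 over the alternative settings. Calml4, a calmodulin-like protein, was 7.54, 8.02 and 9.21 on CTRL and 9.72, 10.61 and 11.74 on HFD in KO mice without overlap. In WT mice it was 6.53, 6.88 and 7.84 on CTRL and 6.59, 6.78 and 7.33 on HFD, and the interaction was -2.73 ± 0.34 (adjusted p = 1.96e-06). Tmem86a, a lysoplasmalogenase, rose by 1.62 in KO mice, whose signals lay between 8.97 and 10.26 on CTRL and between 10.67 and 11.96 on HFD (interaction -2.09 ± 0.39, adjusted p = 0.000278).

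Fgf21, the hepatokine whose fasting induction needs PPARα, was 4.79, 5.22 and 6.23 in CTRL-fed KO mice, where 1 of 8 arrays read it well above background. HFD-fed KO mice reached 7.07, 7.79 and 8.70, with no overlap. WT mice had 7.24, 8.90 and 10.23 on CTRL and 6.30, 8.65 and 9.69 on HFD. WT and KO livers differed by 0.92 on HFD (adjusted p = 0.0387), where all arrays of both groups measured it. The fitted interaction was -2.65 ± 0.57 (adjusted p = 0.00138), and its size is uncertain because it rests on CTRL-fed KO arrays that mostly did not measure the gene. It was the only called member of 12 ketogenesis and fasting genes, a share of 8.33% that is near the 7.62% of all gene symbols called in this direction.

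The other large negative interactions came wholly or partly from a fall in WT livers. Tuba8, an α-tubulin, fell by 1.93 in WT and rose by 0.86 in KO mice (interaction -2.80 ± 0.44, adjusted p = 5.71e-05). Tnfrsf12a, the receptor for the cytokine TWEAK, was 10.43, 10.70 and 12.85 on CTRL and 9.79, 10.20 and 10.98 on HFD in WT mice. In KO mice it was 8.89, 9.29 and 10.07 on CTRL and 9.46, 10.73 and 11.11 on HFD, so that it fell in WT mice by 0.89 and rose in KO mice by 1.14 (interaction -2.03 ± 0.35, adjusted p = 0.000152). Cib3, a calcium-binding protein, fell by 2.21 in WT mice (-2.50 ± 0.53, adjusted p = 0.00124), as did Socs2, the growth hormone induced inhibitor of JAK-STAT signalling, with a fall of 1.75 (-2.37 ± 0.52, adjusted p = 0.00179). Prostaglandin D synthase Ptgds fell in WT mice by 2.11 with -0.50 in KO mice (-1.62, adjusted p = 0.00819). The growth hormone and insulin list of 26 genes had 3 called with a higher WT response (Igfals, Ghr and Gcgr, 0.21 to 0.62) and 2 with a lower one (Socs2 and Irs2, the latter at -0.83), near the 8.45% and 7.62% of all gene symbols, and a list median of -0.017.

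Ribosomal protein genes moved together by small amounts. Of 51 tested, 45 (88.2%) were called, all with the WT response lower, beside 7.62% of all gene symbols, the other 6 were also below 0, and the median interaction was -0.30. The median change was -0.19 in WT and 0.11 in KO mice. Rps12 had the widest gap, with 15.72, 15.91 and 16.40 on CTRL and 15.42, 15.64 and 15.91 on HFD in WT mice and 15.64, 15.90 and 16.07 on CTRL and 15.93, 16.11 and 16.26 on HFD in KO mice. The diet groups overlapped within each genotype, the HFD-fed WT and KO mice did not overlap, and the interaction was -0.62 ± 0.09 (adjusted p = 2.87e-05), followed by Rpl12 at -0.58. Of the called genes 42 also fell in WT mice and 23 rose in KO mice. The median stayed below 0 under both other scalings run for this list, but the count did not hold: 29 were called without array weights, 23 with median centring in place of quantile normalization, and 7 when processed signals were scaled to the 75th percentile, where the list median was -0.12 and that of all probes 0.05. These are among the brightest probes of the array, and processed pseudogenes with near-identical sequence may add to their signal.

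Many ribosomal protein genes start transcription in a run of pyrimidines, the element that ties their translation to growth signals. A run of at least 8 C or T over the RefSeq start, on the gene's strand, was found in 11 of 39 list members with a promoter sequence (28.2%) and in 4.59% of all genes. The same run was found in none of the 16 cholesterol genes, and a CCAAT box in 30.8% of the ribosomal protein genes. In the examples, 30 bases around the start with the run in capitals, all 4 genes were called.
Rps18 (chr17:33955648-33955677, minus strand): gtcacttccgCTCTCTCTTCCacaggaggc
Rpl15 (chr14:18270969-18270998, minus strand): ggagaaagCCTTCTTCCTTTCCTCTggcgg
Rps6 (chr4:86857350-86857379, minus strand): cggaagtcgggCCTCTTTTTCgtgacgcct
Rpl34 (chr3:130730320-130730349, minus strand): TCCTTTTCCTCTTCCggggacggtgctcag
The interactions of these genes were -0.40, -0.36, -0.35 and -0.32.

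**Figure D3:**
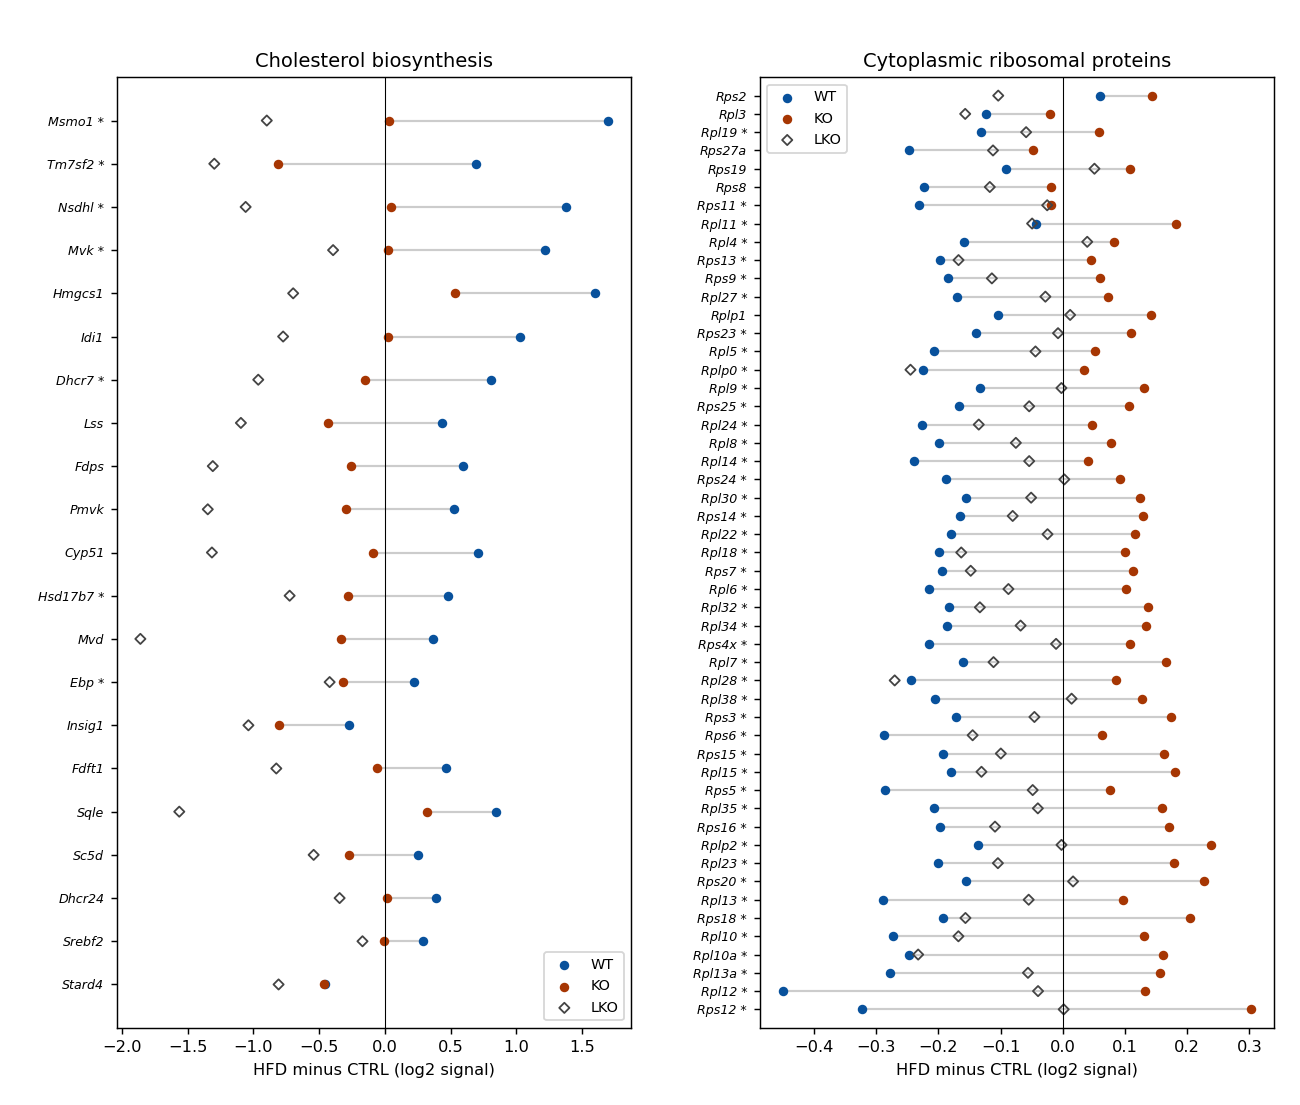
For the tested genes of the cholesterol list (left, 3 members not drawn) and of the ribosomal protein list (right), the HFD minus CTRL difference in log2 signal is shown for WT (blue), KO (brown) and LKO (open diamonds), ordered by interaction, with an asterisk where the WT against KO interaction was called. WT lies to the right of KO for all cholesterol genes drawn, by as little as 0.01 for the lowest, and to the left for all 51 ribosomal protein genes.

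Among inflammatory genes the calls lay on the side of a lower WT response, at which 7.62% of all gene symbols were called. Of 45 genes of NF-κB, TNF and TLR signalling 12 (26.7%) were called, all negative, with a median interaction of -0.36 (-0.52 in washing bath 1 and -0.21 in washing bath 2), a median change of 0.43 in KO mice and of -0.01 in WT mice. Toll-like receptor 2 (Tlr2) rose by 1.62 in KO mice with 0.26 in WT mice (-1.35 ± 0.39, adjusted p = 0.0161), and Il1b (-1.18), the immediate early gene Fos (-1.17) and Jun (-1.12) followed. Without array weights limma called 0 of 45 (10 at an unadjusted p under 0.05), while 16 were without the 4 arrays of lowest weight and 19 without HFD-fed WT replicates 1 and 2. Interferon-stimulated genes had 10 of 26 (38.5%) called, all negative, with a median of -0.44 (-0.26 in washing bath 1 and -0.55 in washing bath 2). Irf7, the interferon regulatory factor, fell by 0.59 in WT and rose by 0.51 in KO mice (-1.11 ± 0.22, adjusted p = 0.000606), and with Ifi44 (-1.50 ± 0.32, adjusted p = 0.0014) it was called without weights too. Oas1a (-1.47) and Usp18 (-1.05) were not. Chemokines had 1 of 23 (4.35%) called (Cxcl16, -0.73) and the matrix and fibrosis list 1 of 34 (2.94%), both below the share of all gene symbols, the latter being the TGF-β receptor Tgfbr2 (-1.11 ± 0.22, adjusted p = 0.000807). The list medians were -0.37 for chemokines and -0.58 for the matrix list, of which 32 of 34 members were negative, with a median change of 0.08 in WT and 0.66 in KO mice. The matrix median was -1.07 in washing bath 1 and -0.01 in washing bath 2. Col1a1 did not pass, and its interaction was -3.27 in washing bath 1 and 0.80 in washing bath 2.

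Markers of non-parenchymal cells were examined beside these lists. Of 20 Kupffer cell and macrophage markers 3 were called, all negative (Cd9 -1.40, Cd68 -1.06 and Mpeg1 -0.88), beside 7.62% of all gene symbols, and the list median was -0.81, with -1.04 in washing bath 1 and -0.38 in washing bath 2. The count was 1 without array weights, 4 without HFD-fed WT replicates 1 and 2, and 11 without the 4 arrays of lowest weight. The summed macrophage signal was 37699 to 110724 in CTRL-fed and 26214 to 131733 in HFD-fed WT mice, and 46525 to 140964 and 77959 to 153148 in KO mice, so its range was wide in every group. Stellate cell markers had 2 of 13 called (Reln -0.77 and Ngfr -0.72), 1 without array weights, with a median of -0.60 that was -0.84 in washing bath 1 and -0.13 in washing bath 2, and summed signals of 36052 to 92987 and 31178 to 133919 in WT against 40770 to 97714 and 85510 to 113689 in KO mice. Neutrophil markers had 0 of 11 called by limma (3 lower at an unadjusted p under 0.05) with a median of -0.58. That median was -0.10 without array weights and -1.02 without HFD-fed WT replicates 1 and 2, and 3 were called without these replicates or without the 4 arrays of lowest weight. Endothelial and cholangiocyte markers had 0 of 11 and 0 of 12 called by limma (0 and 1 at an unadjusted p under 0.05). The macrophage receptor Cd163 was the only macrophage marker with a positive value (1.48, adjusted p = 0.0906). All defining macrophage markers such as Adgre1, Clec4f and Cd68 were well above background. Bulk liver cannot tell more cells of a type from more RNA per cell, and the part of these markers in the inflammatory genes was not tested. Of 12 hepatocyte markers Apoa1 alone was called (-0.34). Summed hepatocyte signals lay between 3133408 and 3526431 in all 4 groups.

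Glutathione and NRF2 genes detoxify reactive compounds. Of 22 tested, 4 had a lower WT response, beside 7.62% of all gene symbols, with a list median of -0.12. They were Gstm3 (-0.93 ± 0.24, adjusted p = 0.00747), Gstm1 (-0.84), Gstm4 (-0.73) and thioredoxin reductase Txnrd1 (-0.35), and all 4 were called without array weights. Each rose in KO mice, by 0.19 to 0.65, and did not pass in WT mice, though the probes of the Gstm paralogs may share signal. The epoxide hydrolase Ephx1 was the 1 member called with a higher WT response (0.72). Of 36 genes of protein folding in the endoplasmic reticulum 6 (16.7%) were called, all negative, with a list median of -0.16 (-0.29 in washing bath 1 and -0.03 in washing bath 2), and 3 without array weights. Ddit3, which encodes the stress factor CHOP, rose in KO mice by 0.47 (-0.73 ± 0.17, adjusted p = 0.00362) by 1 probe, while another of like brightness gave -0.30 with no call, whereas Atf4 (-0.45), Selenos (-0.51) and Xbp1 (-0.63) fell in WT mice.

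Oxidative phosphorylation and amino acid catabolism are set beside the 8.45% of all gene symbols called with a higher WT response. Of 48 respiratory chain genes 10 (20.8%) were called, all with the WT response higher, at 0.18 to 0.47 and with a list median of 0.12, and 2 without array weights (Ndufb3 and Ndufs3). Scaling processed signals to the 75th percentile gave 28. Of 40 amino acid genes 6 (15.0%) were called, all with the WT response higher, and 2 without array weights, with a list median of 0.43 in washing bath 1 and 0.0028 in washing bath 2. They were led by the homocysteine methyltransferase Bhmt, which rose by 1.02 in WT mice with 0.05 in KO mice (0.97 ± 0.23, adjusted p = 0.00318), and the kynurenine monooxygenase Kmo (0.63 ± 0.14, adjusted p = 0.00155). In the remaining lists, acute-phase and complement genes had 1 of 44 called above and 3 below, gluconeogenesis, glycogen and glycolysis 1 of 26 in each direction, the core clock 1 of 17 above, the proteasome 3 of 31 below and lymphocyte markers 1 of 13 in each direction, beside 8.45% of all gene symbols above and 7.62% below. Of the proteasome calls, Psmc6 (-0.29) had a dimmer probe called in the other direction (0.34), and a dimmer Psmc2 probe was not called. Pancreas markers had 2 of 5 called (Cela1 0.94 and Ctrb1 0.59) and red blood cell markers 1 of 7 (Alas2 0.71). A dimmer Cela1 probe gave -0.28 with no call. Without array weights limma called no member of the lists from acute-phase genes to red blood cell markers. Each of these lists had at least 1 member at an unadjusted p under 0.05.

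**Figure D4:**
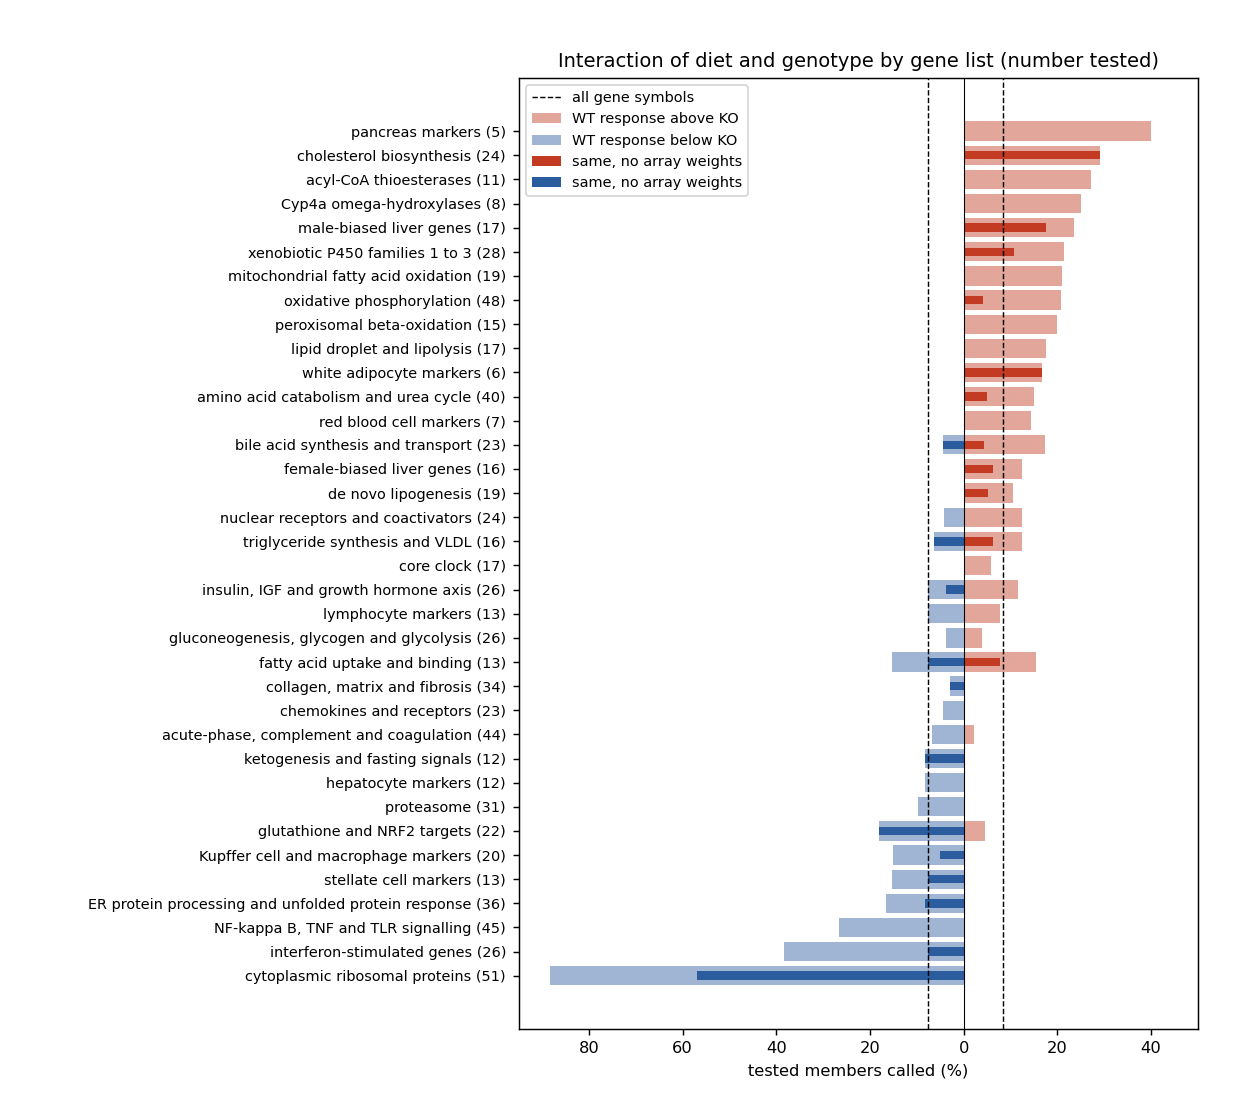
Bars give the percentage of tested members of each list (number in brackets) with a called interaction, the WT response above that of KO mice to the right in red and below to the left in blue, narrow dark bars the same without array weights, and dashed lines the 8.45% and 7.62% of all gene symbols. Lists with no call are left out, and the ribosomal protein list reaches 45 of 51.

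The diet responses of the same genes in LKO mice are set beside those of WT and KO mice. The WT against KO and WT against LKO interactions share the WT mice, so the values of each comparison are given side by side. Cyp2b10 and Cyp2b9 rose in LKO mice by 4.92 and 5.43, against 4.17 and 4.76 in WT mice, with an LKO minus KO interaction of 5.37 (adjusted p = 0.000119) and 6.08 (adjusted p = 5.10e-05). For Cplane1 and Mup20, which fell in KO mice, the LKO change was 0.06 and -0.01 with no call (LKO minus KO 2.89 and 0.98, adjusted p = 0.000131 and 0.000249). Scd1 fell by 1.85 in LKO mice, and its WT minus LKO interaction did not pass (adjusted p = 0.514). For Irf7 and Ifi44 the LKO change was -0.43 and -0.43, on the side of the WT values.

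For Cfd, Cyp8b1 and Lpl the LKO change lay close to that of KO mice. Cfd changed by 0.58 in LKO mice and Cyp8b1 by -0.08, against 0.64 and 0.10 in KO mice, and the WT minus LKO interactions were 5.21 (adjusted p = 0.000433) and 2.73 (adjusted p = 0.00023). Lpl rose by 1.17 in LKO mice, near the 1.43 of KO mice. The cholesterol genes went further, with a median change of -0.93 in LKO mice, and Msmo1 fell by 0.90 there. Cyp39a1 changed by 0.36 in LKO mice, between its WT fall and its KO rise. Rbm24 and Calml4 were intermediate too, rising by 1.47 and 1.04 in LKO mice, and both differed from WT (adjusted p = 0.00111 and 0.0214) and from KO mice (adjusted p = 5.10e-05 and 0.0017). Fgf21 rose by 1.25, with neither difference passing (adjusted p = 0.106 and 0.185). Ribosomal protein genes had a median change of -0.06 in LKO mice.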

How the data were processed

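Liver RNA of 48 mice was hybridized to 1-colour Agilent 60K arrays, and the 4 WT and KO groups of 8 were compared. The authors scanned the arrays and extracted spots with Agilent Feature Extraction 10.10.1.1, and the deposited scanner files hold each spot's median intensity on a linear scale (56605 probes, depth being limited by the number of arrays). The deposited series table holds the authors' normalized log2 values and served as an alternative (32816 probes, every array median at 7.91). Following the study's methods, median intensities were taken to log2, a probe was kept where 1 group or more had it flagged as clearly brighter than background in 4 or more of its 8 arrays (33323 kept), outlier spots were set missing (195 values), and arrays were quantile-normalized. The study corrected for the washing bath before normalization, whereas here the bath was a model term.

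One limma 3.58.1 model (R 4.3.3) over all 48 arrays held the 6 group means and the washing bath, with arrayWeights. The interaction was tested as a coefficient, and p-values were Benjamini-Hochberg adjusted over all probes. A gene is its brightest tested probe. Probe names were updated to RefSeq through accessions (22293 probes), symbols (4981) or synonyms (249), and 5800 kept no RefSeq name. On simulated data with 200 probes shifted by 1, the model called 88.5%, and 85% without weights, with 12 and 10 unchanged probes called. The simulated noise was independent between probes and was scaled by the fitted array weights. It therefore cannot show which weighting suits these data, nor how deviations shared by many probes affect the counts.

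Named genes were the 10 largest interactions in each direction among those called with and without weights and of the same sign in both washing baths, the 3 largest of each response class, the genes the study discusses and up to 4 called members of each list. Other list members are named for context. Members and lists were chosen with earlier results of these data known. Alternatives changed the weights, scaling, filter, wash term, blocks and samples. Values of single members of the cholesterol list that are withheld are not reported here.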

Additional observations from a re-analysis of the deposited data

Results flagged for a closer look

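The WT and KO diet responses differed by the test of the interaction itself (limma, adjusted p of at most 0.05) for every gene of this paragraph. The WT response was above that of KO mice for Cyp2b9 (5.41), Cfd (5.15), Moxd1 (4.87), Cyp2b10 (4.62), Sult2a7 (3.37), Elovl3 (3.23), Pax2 (3.12), Scd1 (2.94), Cplane1 (2.85), Cyp8b1 (2.55), Cyp4a14 (1.96), Fitm1 (1.82) and Ppara (0.43), of which a dimmer probe gave 0.18 with no call and whose call was lost in 10 of 49 settings. It was below for Rbm24 (-3.64), Cyp39a1 (-3.56), Tuba8 (-2.80), Calml4 (-2.73), Lpl (-2.69), Fgf21 (-2.65), Cib3 (-2.50), Socs2 (-2.37), Tmem86a (-2.09) and Tnfrsf12a (-2.03).

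One array lay far from the other 7 of its group by Dixon's test in 11 of the 116 gene and group combinations tested, of which chance alone flags about 1 in 20. In CTRL-fed KO mice these were the highest log2 signals of Cfd (6.16), Elovl3 (12.54), Rbm24 (6.05), Vnn1 (7.45), Cyp4a14 (7.43) and Acot2 (10.19). In HFD-fed KO mice it was the highest Cplane1 signal (11.61). In WT mice these were the lowest Elovl3 (8.38) and highest Calml4 signal on CTRL (7.84) and the highest Calml4 (7.33) and Lpl signal on HFD (11.48). The WT array on CTRL with the lowest weight gave both CTRL values.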

How the results depend on the processing

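Of 33323 probes 4773 were called, and 4503 were when the filter, normalization and model used only the 32 arrays. The count was 1740 without array weights, 2530 with no filter on dim probes, 3155 without the wash term, 1925 at an adjusted p of at most 0.01, and 824 and 803 in washing baths 1 and 2 alone, which hold fewer arrays. It lay between 4384 and 5413 under the other settings, other than 2441 when the 4 arrays of lowest weight were left out and no weights used, a setting chosen after seeing the data, as were those without the 4 arrays (5285) and without HFD-fed WT replicates 1 and 2 (5413). Leaving out 1 array gave 3456 to 5512. Processed signals scaled to the 75th percentile gave 3225 above and 1694 below.

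Without array weights the lists had 29 ribosomal, 0 NF-κB (10 at an unadjusted p under 0.05, limma), 2 interferon, 2 respiratory chain, 3 xenobiotic P450, 2 amino acid and 3 endoplasmic reticulum genes called. Median centring gave 23 ribosomal genes. The 75th percentile scaling gave 7 ribosomal, 11 cholesterol, 28 respiratory chain, 10 P450, 12 amino acid and 3 endoplasmic reticulum genes. Without HFD-fed WT replicates 1 and 2 there were 19 NF-κB and 18 respiratory chain genes. The causes were not tested.

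The interaction of Col1a1 turned to 0.80 in washing bath 2 alone. That of Pparg, near 0, became 0.075 with the 75th percentile scaling, 0.0033 with probes above background on all 32 arrays, 0.30 in washing bath 2 alone, 0.15 without the 4 arrays of lowest weight and 0.20 without HFD-fed WT replicates 1 and 2, and ranged from -0.18 to 0.15 when 1 array was left out. Neither was called.

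The deviations of same-numbered mice of different groups had r from -0.38 to 0.69, with a median of 0.04 and 19 of 48 pairs over 0.1. Mice of other numbers had a median of -0.01, with 106 of 336 pairs over 0.1. Pairing by number was not tested, and the main model did not use it. A replicate block gave 4384 probes.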

Other observations

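The probes named for Pax2, Parvb, Mc2r, Ybx2, Vmn1r214 and Dennd3, chosen after their values were seen, deviated together from their group means, with Pearson's r of 0.85 to 0.96 for the 15 pairs over the same 32 arrays. Their interactions lay between 1.48 and 3.12, and each fell in KO mice, with a change of -1.06 to -2.08. What these sequences share was not tested.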
